A study of Drosophila melanogaster with 9 samples.

Results

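The genes described here set the apical-basal axis of epithelial cells in *Drosophila*: *crumbs* (*crb*), *stardust* (*sdt*), *bazooka* (*baz*), *aPKC*, *par-6*, *discs large 1* (*dlg1*), *lethal (2) giant larvae* (*l(2)gl*), *scribble* (*scrib*) and *yurt* (*yrt*). They were taken by symbol from the deposited table of raw counts, and all 9 were found among its 16492 symbols. Their levels in STAT supercompetitors, Myc supercompetitors and control cells of the wing imaginal disc are given in every library, followed by the tests between the groups.

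Epithelial cells keep their apical and basolateral membranes apart through protein groups that exclude each other. The Crumbs complex, built around the transmembrane protein Crumbs and its scaffold Stardust, marks the apical membrane, and the Par complex of Bazooka, aPKC and Par-6 acts at the apical side and the adherens junctions. Scribble, Discs large and Lethal giant larvae define the basolateral side, where the FERM protein Yurt binds Crumbs and limits its activity. In imaginal discs, *scrib*, *dlg1* and *l(2)gl* are known as neoplastic tumor suppressors, and clones that lack them are eliminated by wild-type neighbors in cell competition. Crumbs is also an upstream regulator of the Hippo growth pathway.

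Cells marked with GFP were sorted from wing discs of wandering larvae of the third instar, with *dpp-gal4* driving the transgenes in a stripe along the anterior side of the compartment boundary. STAT supercompetitors (hop libraries) carried *uas-hop* opposite a chromosome with *dpp-gal4* and *uas-gfp*, where *hop* encodes the JAK kinase of the pathway. Myc supercompetitors (Myc libraries) carried *uas-myc* in its place, and control cells (gfp libraries) carried *dpp-gal4* and *uas-gfp* over +, with no further UAS transgene. All groups also shared the labelled w/+ and +/+ chromosomes. Each group has 3 libraries, 9 in all, and each library came from at least 60 pooled discs. Nothing in the labels says how the discs of the 3 libraries of a group were separated, so the p-values measure the spread between these libraries. The labels name polyadenylated RNA and the methods of the study total RNA, and this was not resolved.

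The libraries hold 5110634 to 6104490 counts, and a polarity gene had 381 to 3471 counts in a library. Levels are given as CPM, counts scaled to the size of the library after TMM normalization. Tests are edgeR's quasi-likelihood test on all 9 libraries, with p-values adjusted by Benjamini-Hochberg over the 12741 genes tested. A gene was called at an adjusted p under 0.05, and all 9 polarity genes passed the filter on low counts. *hop* was at 1145 to 1432 CPM in hop libraries, 58.6 to 73.6 CPM in Myc libraries and 62.6 to 80.0 CPM in gfp libraries. *Myc* (listed as *dm*) was at 280 to 351 CPM in hop libraries, 538 to 774 CPM in Myc libraries and 233 to 259 CPM in gfp libraries. The JAK/STAT targets *Socs36E*, *dome* and *chinmo* were called higher in hop than in gfp, with log2 fold changes of 0.94, 0.80 and 2.48 (adjusted p 0.00259, 0.00282 and 1.78e-05). One library stood apart from its group. Principal components were computed on the most variable genes only, and the first held 60.5% of their variance. On it Myc 1 scored -14.8, between the hop libraries at -26.1 to -21.2 and the other Myc libraries at 17.5 and 24.5. The score of gfp 1 was 6.45, against 19.1 and 20.2 for gfp 2 and gfp 3. From its own principal components, the study describes the 3 groups as distinct clusters. Calls below that change without Myc 1 are given with and without it.

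*crb* and *sdt*, the genes of the Crumbs complex, had the largest fold changes among the polarity genes in STAT supercompetitors. Both were higher in every hop library than in every gfp library, with mean ratios of 1.38 and 1.32. By edgeR on all 9 libraries neither passed the adjusted threshold against the control. DESeq2 called both (adjusted p = 0.0278 and 0.0394), and so did edgeR on the 6 hop and gfp libraries alone (0.00681 and 0.0245). Over all genes the calls also rose, from 910 to 1346 by DESeq2 and 1693 on the 6 libraries. Neither gene was called by edgeR with any hop or gfp library left out. Against Myc supercompetitors, *crb* rose 1.40-fold and was the only polarity gene called, and *sdt* was not called. Since the RNA was taken from pooled cells, a higher level per cell and more cells of a kind that expresses the gene cannot be told apart.

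*crb* (FBgn0259685), on chromosome 3R at 24295078 to 24314541 of BDGP6, was at 553, 612 and 608 CPM in hop 1, hop 2 and hop 3. It was at 527, 379 and 360 CPM in Myc 1, Myc 2 and Myc 3, and at 399, 452 and 435 CPM in gfp 1, gfp 2 and gfp 3. The lowest hop library thus lay above the highest library of both other groups, while Myc 1 lay closer to hop 1 than to Myc 2 or Myc 3. The group means were 591 ± 33.1 CPM in hop, 422 ± 91.6 CPM in Myc and 429 ± 26.9 CPM in gfp (SD, n = 3 each). The coefficient of variation was 5.60% in hop, 21.7% in Myc and 6.27% in gfp, where counting error alone gives 1.74%, 2.08% and 1.98%.

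In hop against gfp, the log2 fold change of *crb* was 0.46 (SE 0.14, 95% interval 0.17 to 0.75), which is 1.38-fold, with an edgeR adjusted p of 0.0527. Without Myc 1 it was 0.50 with an adjusted p of 0.00433, and without Myc 2 or Myc 3 the adjusted p was 0.0387 or 0.0423. With any hop or gfp library left out *crb* was not called, with edgeR adjusted p values of 0.0542 to 0.157. The adjusted p was 0.0278 by DESeq2 and 0.0386 by limma-voom. By edgeR it was 0.0333 with the replicate number as a block and 0.00681 on the 6 hop and gfp libraries alone. It ranged from 0.00433 to 0.157 over 20 alternative settings, in 11 of which *crb* was called. The fold change had the same sign in all 20. In Myc against gfp, the log2 fold change was -0.02 (95% interval -0.31 to 0.27), and its sign changed in 9 of the 20 settings, in none of which it was called.

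Between hop and Myc libraries, *crb* had a log2 fold change of 0.49 (SE 0.14, 95% interval 0.20 to 0.78; edgeR adjusted p = 0.0462). This call lies close to the threshold. It was lost on leaving out any library other than Myc 1, with adjusted p values of 0.0765, 0.0980 and 0.115 without hop 1, hop 2 and hop 3, 0.170 and 0.191 without Myc 2 and Myc 3, and 0.0601, 0.0743 and 0.0900 without gfp 1, gfp 2 and gfp 3. Without Myc 1 the log2 fold change was 0.69 and the adjusted p was 0.000771.

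*sdt* (FBgn0261873, chromosome X, 8178549 to 8240474) encodes the scaffold that holds Crumbs at the membrane. It was at 172, 176 and 174 CPM in hop libraries, at 158, 114 and 149 CPM in Myc libraries, and at 138, 128 and 132 CPM in gfp libraries. The hop libraries were nearly level and lay above all other libraries, while Myc 2 was the lowest of the 9. Their coefficient of variation of 1.17% is below the 3.20% that counting error alone gives, so it understates the spread. The log2 fold change was 0.40 in hop against gfp (SE 0.13, 95% interval 0.13 to 0.67; edgeR adjusted p = 0.0717), and it was called without Myc 1 (adjusted p = 0.0236), without Myc 2 (0.0317) and by DESeq2 (0.0394). Against Myc, the hop libraries had a log2 fold change of 0.31 with an adjusted p of 0.156, which became 0.41 and 0.0472 without Myc 1. In Myc against gfp it was 0.09 (95% interval -0.18 to 0.37).

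**Figure D1:**
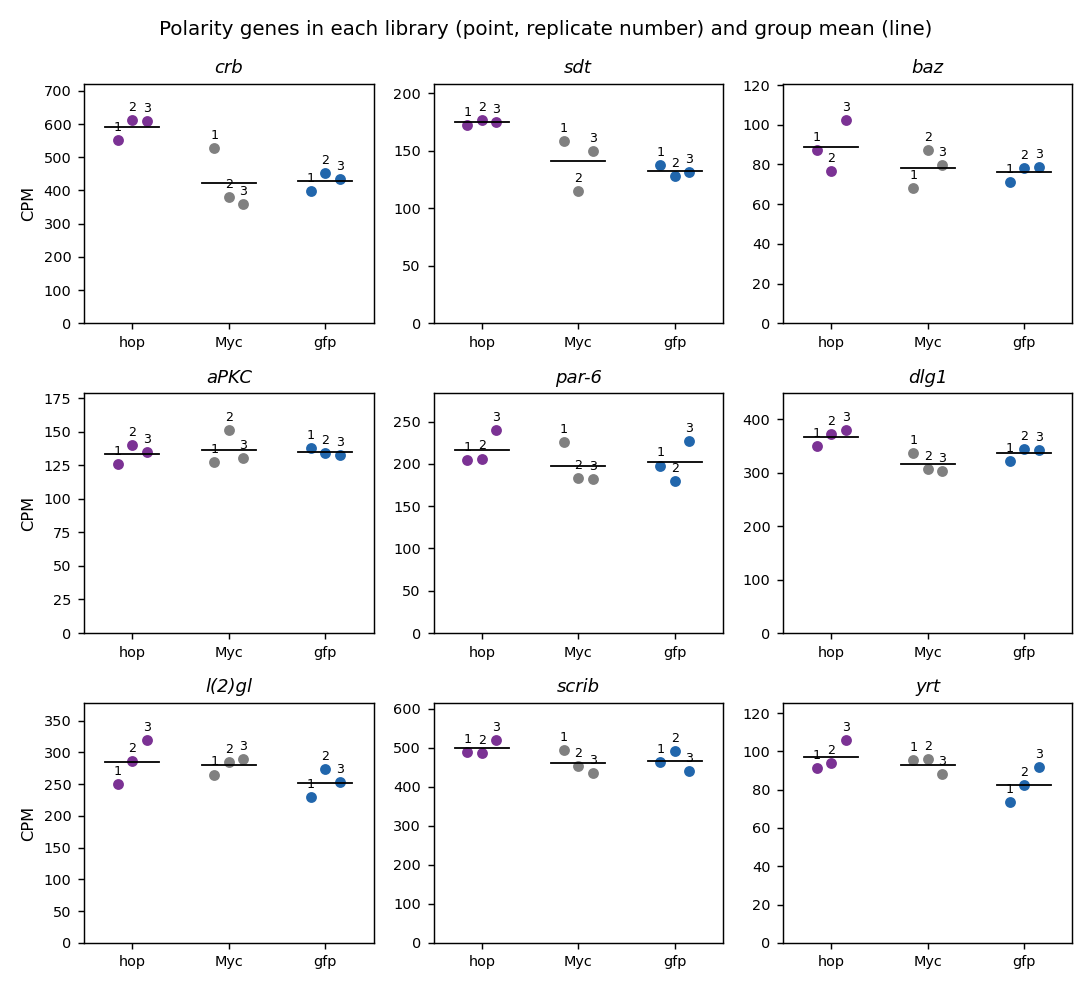
Level of each polarity gene in CPM (vertical axes, from 0) in the hop, Myc and gfp libraries, where each point is a library with its replicate number and each line is the mean of 3 libraries. For *crb*, the hop libraries lie at 553 to 612 CPM, Myc 1 at 527, Myc 2 and Myc 3 at 379 and 360 and the gfp libraries at 399 to 452, while the 3 groups of *aPKC* lie on top of each other.

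The 3 genes of the Par complex were not called in any comparison, and their libraries overlapped between all groups. Of all genes, 7.14% were called in hop against gfp, 2.65% in Myc against gfp and 6.58% in hop against Myc. *baz* (FBgn0000163, chromosome X, 17160006 to 17200728) encodes the Par-3 scaffold. It was at 87.2, 76.5 and 102 CPM in hop libraries, at 68.1, 87.3 and 79.7 CPM in Myc libraries and at 71.2, 78.4 and 78.5 CPM in gfp libraries. Its highest and lowest libraries were hop 3 and Myc 1, and its log2 fold change in hop against gfp was 0.22 (95% interval -0.09 to 0.53; edgeR adjusted p = 0.366).

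*aPKC* (FBgn0261854, chromosome 2R, 14944458 to 14962969) encodes the atypical protein kinase C that phosphorylates Lethal giant larvae and other basolateral proteins. It was at 126, 140 and 135 CPM in hop libraries, at 128, 151 and 131 CPM in Myc libraries and at 138, 134 and 133 CPM in gfp libraries. This was the polarity gene with the smallest difference between hop and gfp, with a log2 fold change of -0.01 (95% interval -0.26 to 0.23; edgeR adjusted p = 0.958), whose sign changed in 10 of the 20 settings. The interval leaves room for a fold change between 0.835 and 1.17.

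*par-6* (FBgn0026192, chromosome X, 17703352 to 17707096) encodes the adaptor that links aPKC to Cdc42 and to the Crumbs complex. It was at 204, 206 and 240 CPM in hop libraries, at 226, 184 and 182 CPM in Myc libraries and at 198, 180 and 227 CPM in gfp libraries. Each group held 1 library well above its others, and the log2 fold change in hop against gfp was 0.10 (95% interval -0.17 to 0.38; edgeR adjusted p = 0.657). The log2 fold changes in hop against Myc of *baz*, *aPKC* and *par-6* were 0.18, -0.03 and 0.14, with adjusted p values of 0.473, 0.897 and 0.546.

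No gene of the Scribble module was called in any comparison, beside the same 7.14%, 2.65% and 6.58% of all genes. *dlg1* (FBgn0001624, chromosome X, 11369665 to 11409776) encodes a membrane-associated guanylate kinase scaffold. It was at 349, 372 and 380 CPM in hop libraries, at 336, 307 and 303 CPM in Myc libraries and at 321, 345 and 342 CPM in gfp libraries. All hop libraries lay above all others, although hop 1 and gfp 2 were nearly level. The log2 fold change was 0.13 in hop against gfp (95% interval -0.09 to 0.34; edgeR adjusted p = 0.464) and 0.22 in hop against Myc (95% interval 0.00 to 0.44; unadjusted p = 0.0483, adjusted p = 0.199, edgeR). The annotated ends of *dlg1* and of *hop*, which lies on the opposite strand, are 1567 bases apart, and no exon of *dlg1* shares bases with another gene.

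*l(2)gl* (FBgn0002121, chromosome 2L, 9839 to 21376) encodes the WD40 protein that is a substrate of aPKC. It was at 251, 286 and 320 CPM in hop libraries, at 265, 285 and 289 CPM in Myc libraries and at 230, 274 and 253 CPM in gfp libraries. The groups overlapped, with hop 3 the highest and gfp 1 the lowest library. The log2 fold change was 0.18 in hop against gfp and 0.15 in Myc against gfp (edgeR adjusted p = 0.369 and 0.644).

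*scrib* (FBgn0263289, chromosome 3R, 26536350 to 26604051) encodes a scaffold with leucine-rich repeats and PDZ domains. It was at 490, 486 and 521 CPM in hop libraries, at 495, 453 and 436 CPM in Myc libraries and at 464, 491 and 441 CPM in gfp libraries. Its highest library exceeded its lowest by 1.19-fold, the smallest ratio among the 9 genes. In hop against gfp the log2 fold change was 0.10 (95% interval -0.12 to 0.32; edgeR adjusted p = 0.576).

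*yrt* (FBgn0004049, chromosome 3R, 13428867 to 13434984) encodes the basolateral antagonist of Crumbs. It was at 91.3, 94.1 and 106 CPM in hop libraries, at 95.4, 95.7 and 88.2 CPM in Myc libraries and at 73.5, 82.4 and 91.9 CPM in gfp libraries. Its lowest libraries were gfp 1 and gfp 2, and gfp 3 lay within the range of both other groups. The log2 fold change was 0.23 in hop against gfp (95% interval -0.04 to 0.51; edgeR adjusted p = 0.282) and 0.17 in Myc against gfp (95% interval -0.11 to 0.45; adjusted p = 0.625). No other polarity gene had a larger fold change in Myc supercompetitors.

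In hop against gfp, edgeR called 0 of the 9 polarity genes, where it called 7.14% of all genes tested (3.58% higher and 3.56% lower). At an unadjusted p under 0.05, *crb* and *sdt* were higher, 2 of 9 beside 11.9% of all genes. DESeq2 called both of them, where it called 5.50% of its genes higher, and limma-voom called *crb*, where it called 3.89% higher. In 3 genes (*crb*, *sdt* and *dlg1*) the lowest hop library exceeded the highest gfp library, beside 14.8% of all genes. The log2 fold change was above 0 in 8 of 9, with a median of 0.18, beside 48.4% and a median of -0.02 over all genes (quartiles -0.41 and 0.27). Among the 7326 genes with a mean of at least 10 CPM, which includes every polarity gene, 56.5% were above 0 and the median was 0.06. hop 3 was the highest of the 9 libraries for *baz*, *par-6*, *dlg1*, *l(2)gl*, *scrib* and *yrt*.

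No polarity gene was called in Myc supercompetitors. edgeR called 0 of 9, where it called 2.65% of all genes (2.21% higher and 0.447% lower). At an unadjusted p under 0.05 there were 0 of 9, beside 14.2% of all genes (7.93% higher and 6.23% lower). DESeq2 and limma-voom also called 0, where they called 4.77% and 2.32% of their genes higher. The groups overlapped in all 9 genes, where all Myc libraries lay above or below all gfp libraries in 10.8% and 10.4% of all genes, and the log2 fold changes ran from -0.09 for *dlg1* to 0.17 for *yrt*, with a median of 0.02 and 5 of 9 above 0, beside 45.9% of all genes and 50.3% of those with at least 10 CPM. The 95% intervals of the 9 genes lie between -0.31 and 0.45.

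In hop against Myc, edgeR called *crb* alone, 1 of 9, where it called 3.34% of all genes higher, 3.24% lower and 6.58% in either direction. DESeq2 and limma-voom called *crb* alone too, where they called 5.06% and 3.85% of their genes higher. All hop libraries lay above all Myc libraries in *crb*, *sdt* and *dlg1*, 3 of 9 beside 11.4% of all genes, and the same 3 genes had an unadjusted p under 0.05, beside 11.7% of all genes. The median log2 fold change was 0.14, and 8 of 9 were above 0, beside 48.4% of all genes and 51.9% of those with at least 10 CPM. The count of called polarity genes was 2 without Myc 1 and 0 without any other library. Over all genes the calls went from 838 to 2500 without Myc 1, and to between 229 and 665 without any other library. The comparisons with gfp share the gfp libraries, and both comparisons of hop share the hop libraries, so their fold changes are not independent of each other.

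**Figure D2:**
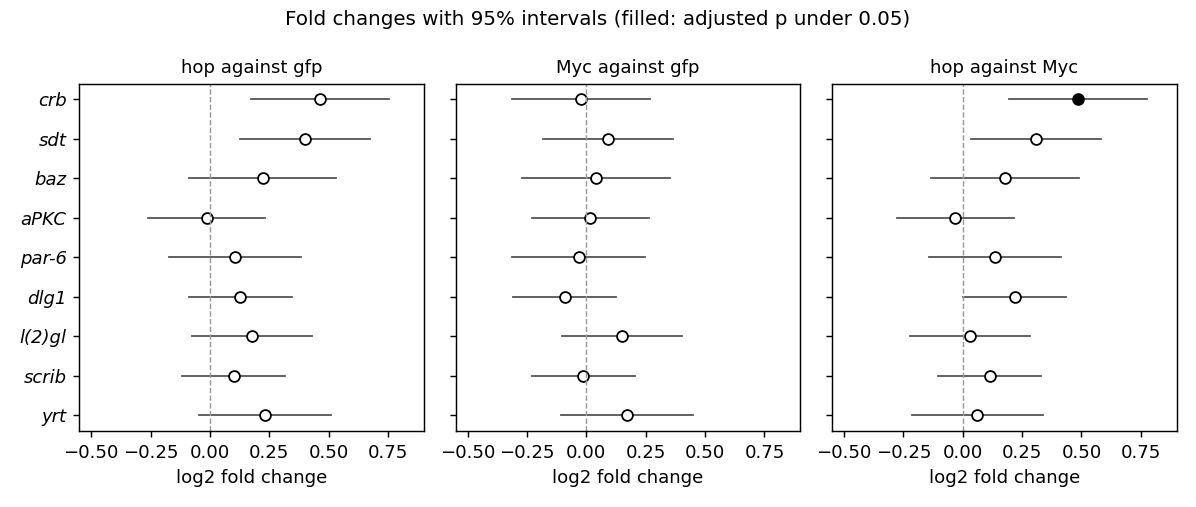
Log2 fold change of each polarity gene (points) with its 95% interval (lines) from edgeR in hop and Myc against gfp and in hop against Myc, where a filled point has an adjusted p under 0.05. The only filled point is *crb* in hop against Myc at 0.49, and every interval in Myc against gfp crosses 0.

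Myc 1 was not shifted evenly across the polarity genes. It lay above both Myc 2 and Myc 3 in 5 genes (*crb*, *sdt*, *par-6*, *dlg1* and *scrib*), below both in 3 (*baz*, *aPKC* and *l(2)gl*) and between them in *yrt*. For *crb*, Myc 1 ranked next after the 3 hop libraries, and so it did for *sdt*. Without Myc 1, the log2 fold changes in Myc against gfp were -0.19 for *crb* (edgeR adjusted p = 0.506), 0.16 for *baz* and -0.12 for *par-6*, and none of the 9 genes was called. Between hop and Myc libraries they were 0.10 for *baz* and 0.25 for *par-6* without this library, also not called. Whether the shift of Myc 1 on the first principal component has a part in these values was not tested.

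Levels of different genes were compared per kilobase of annotated exon (RPKM, CPM divided by the summed length of all exons of a gene). *crb* and *par-6* had the highest levels, and *sdt* and *baz* the lowest, in all groups. In control cells, *par-6* averaged 66.5 ± 7.88 RPKM, *crb* 52.6 ± 3.30, *l(2)gl* 42.1 ± 3.68, *dlg1* 29.2 ± 1.14, *scrib* 27.1 ± 1.45, *aPKC* 21.0 ± 0.407, *yrt* 18.5 ± 2.05, *sdt* 12.0 ± 0.451 and *baz* 6.99 ± 0.388 RPKM (SD, n = 3). Of these neighbors in the order, only *dlg1* and *scrib* had libraries that overlapped. In STAT supercompetitors *crb* came first with 72.6 ± 4.06 RPKM, and its libraries overlapped with those of *par-6* at 71.6 ± 6.61 RPKM, while in Myc supercompetitors the libraries of *crb* overlapped with those of both *par-6* and *l(2)gl*. The exon length runs from 3032 bases for *par-6* to 17197 bases for *scrib* and sums over 2 to 21 annotated transcripts, so the level per kilobase is understated for genes with long exons that are not used in the disc.

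**Figure D3:**
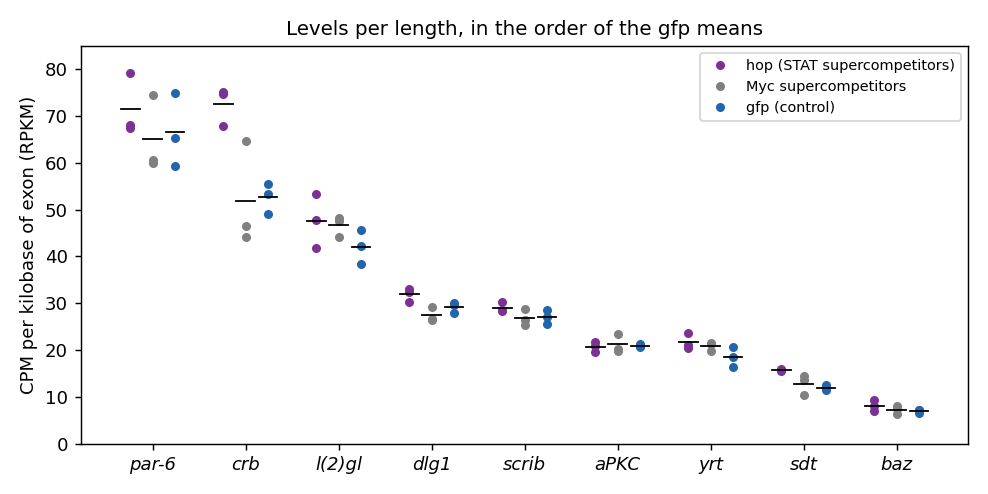
Level per kilobase of exon (RPKM, vertical axis from 0) of each polarity gene in hop, Myc and gfp libraries, in the order of the gfp means, where points are libraries and lines are means of 3. *par-6* averages 66.5 and *baz* 6.99 RPKM in gfp, and *crb* averages 72.6 RPKM in hop, 51.8 in Myc and 52.6 in gfp.

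The summed level of the 5 apical genes (*crb*, *sdt*, *baz*, *aPKC* and *par-6*) was divided by that of the 4 basolateral genes (*dlg1*, *l(2)gl*, *scrib* and *yrt*) in each library. This ratio was 0.968, 0.978 and 0.950 in hop libraries, 0.930, 0.803 and 0.808 in Myc libraries and 0.868, 0.816 and 0.890 in gfp libraries. Every hop library lay above every other one, with Myc 1 next. Without *crb*, the ratio was 0.484 to 0.500 in hop, 0.471 to 0.487 in Myc and 0.437 to 0.505 in gfp, and the groups overlapped. The counts of *crb* over those of its antagonist *yrt* were 5.74 to 6.50 in hop libraries, 3.96 to 5.53 in Myc libraries and 4.73 to 5.49 in gfp libraries, so that hop 3 lay only just above Myc 1. These ratios are descriptions of RNA levels and carry no test.

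Markers of cell position and of other cell types were read beside these values. The summed level of 4 wing disc epithelium markers (*nub*, *vg*, *zfh2* and *pnr*) was 1944 to 2249 CPM in hop, 1048 to 1251 CPM in Myc and 1358 to 1459 CPM in gfp libraries. Among them *zfh2*, a marker of the hinge, was at 1489 to 1726 CPM in hop against 850 to 892 CPM in gfp libraries, and *pnr*, a marker of the notum, was at 4.65 to 9.29 CPM in hop against 39.1 to 62.8 CPM in gfp libraries. Against gfp, *zfh2* was called higher and *pnr* lower in hop (edgeR adjusted p = 0.000511 and 0.000232). The study names both as known to respond to JAK/STAT signaling, so neither marks position alone. The other epithelial markers did not follow *zfh2*: *vg* was at 216 to 228 CPM in hop against 249 to 283 CPM in gfp libraries, and *nub* was at 222 to 297 CPM against 207 to 252 CPM. The 3 genes *twi*, *Him* and *zfh1* mark adult muscle precursors. Their sum was 18.8 to 33 CPM in hop, 24.1 to 34.3 CPM in Myc and 36.9 to 57.7 CPM in gfp libraries. *Him* was at 0 in Myc 3 and gfp 3, and *zfh1* was called lower in hop than in gfp (edgeR adjusted p = 0.0260). Markers of the anterior and *dpp* domain (*dpp*, *ptc* and *ci*) summed to 1635 to 2090 CPM in hop, 1573 to 1597 CPM in Myc and 1487 to 1682 CPM in gfp libraries, against 94.6 to 112, 72.0 to 82.7 and 122 to 133 CPM for 3 posterior genes in the same groups. Of the posterior genes, *inv* was at 43.28 to 61.45 CPM in hop, 41.1 to 44.92 CPM in Myc and 71.9 to 79.75 CPM in gfp libraries. *inv* was called lower in Myc than in gfp (edgeR adjusted p = 0.00978) but not in hop (0.0719). In *en* and *hh*, the other posterior genes, the hop and gfp libraries overlapped. Most of the anterior sum was *ci*, at 1239 to 1645 CPM in hop and 1012 to 1175 CPM in gfp libraries. It was called higher in hop (edgeR adjusted p = 0.0389). *dpp* itself was at 194 to 198 CPM in hop, 218 to 242 CPM in Myc and 221 to 246 CPM in gfp libraries, so that every hop library lay below all others (edgeR adjusted p = 0.126 against gfp), and *ptc* was at 202 to 250 CPM in hop and 245 to 260 CPM in gfp libraries. Sums for 3 haemocyte markers were 36.2 to 43.6 CPM in hop, 30.2 to 38.6 CPM in Myc and 28.3 to 42.6 CPM in gfp libraries. Within them *Hml* was at 28.1 to 32.6 CPM in hop against 10.3 to 15.4 CPM in gfp libraries, and *Pxn* at 4.65 to 7.77 CPM against 15.1 to 26.6 CPM. Against gfp, *Hml* was called higher and *Pxn* lower in hop (edgeR adjusted p = 0.0119 and 0.00838). The third, *NimC1*, was not called (0.423). The glial marker *repo* was at 12.4 to 14.5 CPM in hop, 9.13 to 11.3 CPM in Myc and 5.66 to 10.1 CPM in gfp libraries. The neuronal marker *elav*, whose exons share bases with *arg* and a noncoding RNA, was at 80.2 to 99.5 CPM in hop, 55.5 to 78.1 CPM in Myc and 64.5 to 77.7 CPM in gfp libraries. The sums of 2 tracheal and 3 fat body markers overlapped between all groups, at 80.5 to 119 CPM and 11 to 22.5 CPM over all libraries, but some single markers did not. All hop libraries lay below the gfp libraries in the tracheal gene *btl* and the fat body gene *Fbp1* and above them in the fat body gene *Lsp1alpha*, and *Fbp1* was called lower in hop than in Myc (edgeR adjusted p = 0.0438). Of the 23 markers, none was at 0 in all libraries. The part of these shifts in the values of *crb* and *sdt* was not tested.

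Of 49 further genes that work with the polarity complexes, edgeR called 2 of 49 in hop against gfp, 5 in hop against Myc and 0 in Myc against gfp, beside 7.14%, 6.58% and 2.65% of all genes. In hop against gfp this count was 6 without Myc 1 and 0 without hop 3, gfp 2 or gfp 3. Over all genes the calls went from 910 to 1921 without Myc 1, and to 157, 134 and 119 without hop 3, gfp 2 and gfp 3. In hop against Myc the count among the 49 was 8 without Myc 1, 2 without hop 1, gfp 2 or gfp 3, 1 without hop 3 or Myc 2 and 0 without Myc 3. Over all genes the calls there went from 838 to 2500 without Myc 1, and to 344, 256 and 229 without hop 3, Myc 2 and Myc 3. These shifts are thus not particular to the 49 genes. The genes form 5 lists, and each list is given by its counts and median. The lists hold 13 partners and regulators of the Crumbs, Par and Scribble groups, 13 septate junction genes, 10 adherens junction genes, 8 genes of the trafficking of Crumbs, and 5 genes by which wild-type cells act on polarity-deficient neighbors.

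The septate junction, the barrier that lies basal to the adherens junction in insect epithelia and to which Scribble, Discs large and Yurt localize, had the largest share, among the 5 lists, of genes above the other groups in hop libraries. The hop libraries all exceeded the gfp libraries in 10 of its 13 genes, beside 14.8% of all genes, and above all Myc libraries in 8 of 13, beside 11.4%. Its median log2 fold change was 0.23 in hop against gfp with 12 of 13 above 0, and 0.27 in hop against Myc with 13 of 13 above 0. Of all genes, 48.4% were above 0 in both comparisons, and of those with at least 10 CPM 56.5% and 51.9%. edgeR called 0 of 13 in hop against gfp, beside 7.14% of all genes, with 5 higher at an unadjusted p under 0.05, beside 11.9%. It called *cora* and *Atpalpha* higher in hop against Myc, 2 of 13 beside 3.34% of all genes. In Myc against gfp the median was -0.06, with 4 of 13 above 0, beside 45.9% of all genes. All Myc libraries lay below all gfp libraries in 4 genes and above them in 2, beside 10.4% and 10.8% of all genes. *cora*, which encodes the FERM protein Coracle, was at 359, 366 and 404 CPM in hop libraries, at 285, 267 and 276 CPM in Myc libraries and at 313, 299 and 292 CPM in gfp libraries. In hop against Myc it had a log2 fold change of 0.45 (edgeR adjusted p = 0.0207), and the call was lost without hop 3, Myc 2 or Myc 3, with adjusted p values of up to 0.0813. *Atpalpha*, the catalytic subunit of the sodium pump, was at 692, 719 and 711 CPM in hop libraries, at 540, 569 and 508 CPM in Myc libraries and at 609, 596 and 681 CPM in gfp libraries. The log2 fold change in hop against Myc was 0.39 (edgeR adjusted p = 0.0338), and the call was kept without Myc 1 and lost without each of the other 8 libraries (up to 0.138). Against gfp, *Atpalpha* was at 0.17 in hop and -0.22 in Myc, and *cora* at 0.32 and -0.13, none of them called.

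Among adherens junction genes, *ed* was called higher in hop against Myc, 1 of 10 beside 3.34% of all genes. By edgeR 0 of 10 were called in hop against gfp, beside 7.14%, with 2 higher at an unadjusted p under 0.05, beside 11.9%. *ed* encodes the immunoglobulin-domain adhesion protein Echinoid. It was at 809, 790 and 861 CPM in hop libraries, at 616, 558 and 558 CPM in Myc libraries and at 711, 696 and 614 CPM in gfp libraries. Its log2 fold change in hop against Myc was 0.51 (edgeR adjusted p = 0.0126), and the call was lost without Myc 2 or Myc 3 (up to 0.0551). Against gfp it was 0.28 in hop and -0.22 in Myc, neither called. Of the exon bases of *ed*, 199 are shared with the antisense RNA *CR44984*, and the sources do not say whether the counting used strand. The median log2 fold change of the list was 0.13 in hop against gfp and 0.23 in hop against Myc.

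Genes of the trafficking of Crumbs had a median log2 fold change of 0.02 in hop against gfp, and 1 of 8 was called lower, beside 3.56% of all genes. *Vps25*, a subunit of the ESCRT-II complex that sorts endocytosed membrane proteins for degradation, fell to 2.60, 6.0 and 3.33 CPM in hop libraries, against 12.6, 11.3 and 10.9 CPM in gfp libraries. It was at 10.5, 6.54 and 8.15 CPM in Myc libraries, so every hop library lay below every library of the other groups, hop 2 only just below Myc 2. These levels rest on few reads. Counting error alone was 21.2% of the hop level, beside a coefficient of variation of 45.0%. Its log2 fold change in hop against gfp was -1.54 (SE 0.34; edgeR adjusted p = 0.0188), and the call was lost without hop 1, hop 3, gfp 2 or gfp 3 (up to 0.0893). Against Myc libraries, *Vps25* in hop had a log2 fold change of -1.08 with an adjusted p of 0.0748.

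Of the 5 genes that act between wild-type and polarity-deficient cells, *sas* was called in hop against gfp (1 of 5, beside 3.58% of all genes called higher), and *sas* and *Ptp10D* in hop against Myc (2 of 5, beside 3.34%). *sas* encodes the apical transmembrane ligand Stranded at second and *Ptp10D* its receptor phosphatase. The study itself names *sas* as changed in these libraries, so its call is not independent evidence. By in situ hybridization the study also saw more *sas* RNA in STAT supercompetitors. It found Ptp10D protein at the apical side, and not laterally where winners meet losers. From this it proposes that Sas and Ptp10D play no part in competition driven by JAK/STAT. *sas* was at 480, 361 and 483 CPM in hop libraries, at 360, 249 and 281 CPM in Myc libraries and at 274, 283 and 261 CPM in gfp libraries, with hop 2 and Myc 1 nearly level. Its log2 fold change was 0.69 in hop against gfp (edgeR adjusted p = 0.0144) and 0.57 in hop against Myc (0.0324), which was 0.75 (0.00134) without Myc 1. The first call was lost without hop 3, gfp 2 or gfp 3 (up to 0.0883) and the second without hop 1, hop 3, Myc 2, Myc 3, gfp 2 or gfp 3 (up to 0.136). Its exons share 129 bases with the antisense RNA *CR45909*. *Ptp10D* was at 261, 262 and 274 CPM in hop libraries, at 209, 199 and 177 CPM in Myc libraries and at 193, 218 and 217 CPM in gfp libraries, so that all hop libraries lay above all others. Its log2 fold change was 0.45 in hop against Myc (edgeR adjusted p = 0.0294), lost without any hop library, Myc 2, Myc 3, gfp 2 or gfp 3 (up to 0.135), and 0.34 in hop against gfp (0.0713).

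Partners and regulators of the Crumbs, Par and Scribble groups had no call in any comparison. By edgeR, 3 of 13 were higher at an unadjusted p under 0.05 in hop against gfp and 0 were lower (11.9% and 13.1% of all genes), and the median log2 fold change was 0.18. Between hop and Myc, 3 were higher and 1 lower at this level (11.7% and 13.1% of all genes), with a median of 0.10. All 49 genes together had a median log2 fold change of 0.17 in hop against gfp, with 36 above 0. In hop against Myc it was 0.16, with 35 above 0. These counts stand beside 48.4% of all genes in both comparisons, and 56.5% and 51.9% of those with at least 10 CPM. In Myc against gfp the median was -0.06 with 19 of 49 above 0, beside 45.9% of all genes. At an unadjusted p under 0.05 by edgeR, 5 were higher and 5 lower, beside 7.93% and 6.23% of all genes. DESeq2 called 2 of the 49 in this comparison, 1 higher and 1 lower, where it called 554 of its 9037 genes. With limma-voom 1 was called, higher, where it called 367 of 12741 genes.

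**Figure D4:**
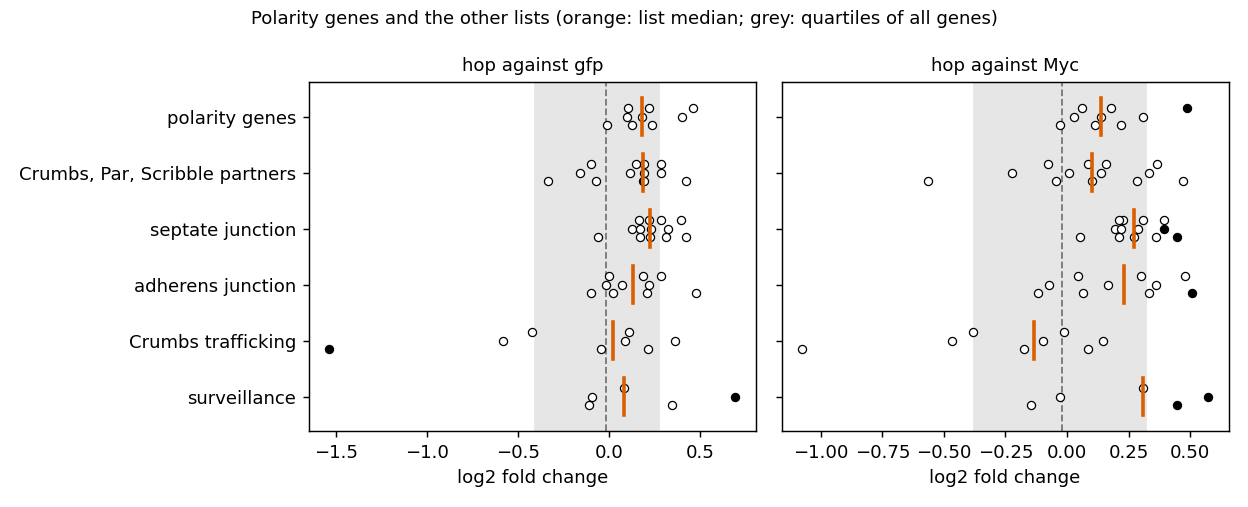
Log2 fold change (horizontal axes) of the polarity genes and of 5 further lists in hop against gfp and hop against Myc, where each circle is a gene, filled circles have an adjusted p under 0.05 by edgeR, orange lines are list medians, grey bands span the quartiles of all genes tested and dashed lines mark their median. The septate junction genes lie mostly above 0, with medians of 0.23 and 0.27, and *Vps25* lies at -1.54 in hop against gfp.

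The genes whose pattern over the 9 libraries was most like that of *crb* were sought among the 7326 genes with at least 10 CPM, by the root mean square difference of log2 CPM after centring each gene on its own mean. They were *CG13506* (0.0778), *pgant5* (0.0823), *APC7* (0.0933), *Best1* (0.0940) and *scyl* (0.10). None of them belongs to the polarity genes or the lists. *CG13506* was at 74.7, 82.5 and 82.9 CPM in hop libraries and at 67.0, 45.1 and 48.9 CPM in Myc libraries. In gfp libraries it was at 55.1, 56.0 and 61.9 CPM. Its high level in Myc 1, shared with *crb*, follows from the choice, which used all 9 libraries. Among the polarity genes, *sdt* was nearest to *crb* at rank 158 with a difference of 0.165, followed by *dlg1* at rank 271, and *aPKC* was the farthest at rank 2322.

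The dependence of *crb* and *sdt* on the libraries and tools is shown in the plot of adjusted p by setting. In hop against gfp, *crb* passed 0.05 in 11 and *sdt* in 6 of 20 settings. Against Myc, *crb* kept its call in 10 of 20 settings and *sdt* gained one in 1. The fold changes themselves moved less, between 0.39 and 0.54 for *crb* in hop against gfp and between 0.38 and 0.69 in hop against Myc.

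**Figure D5:**
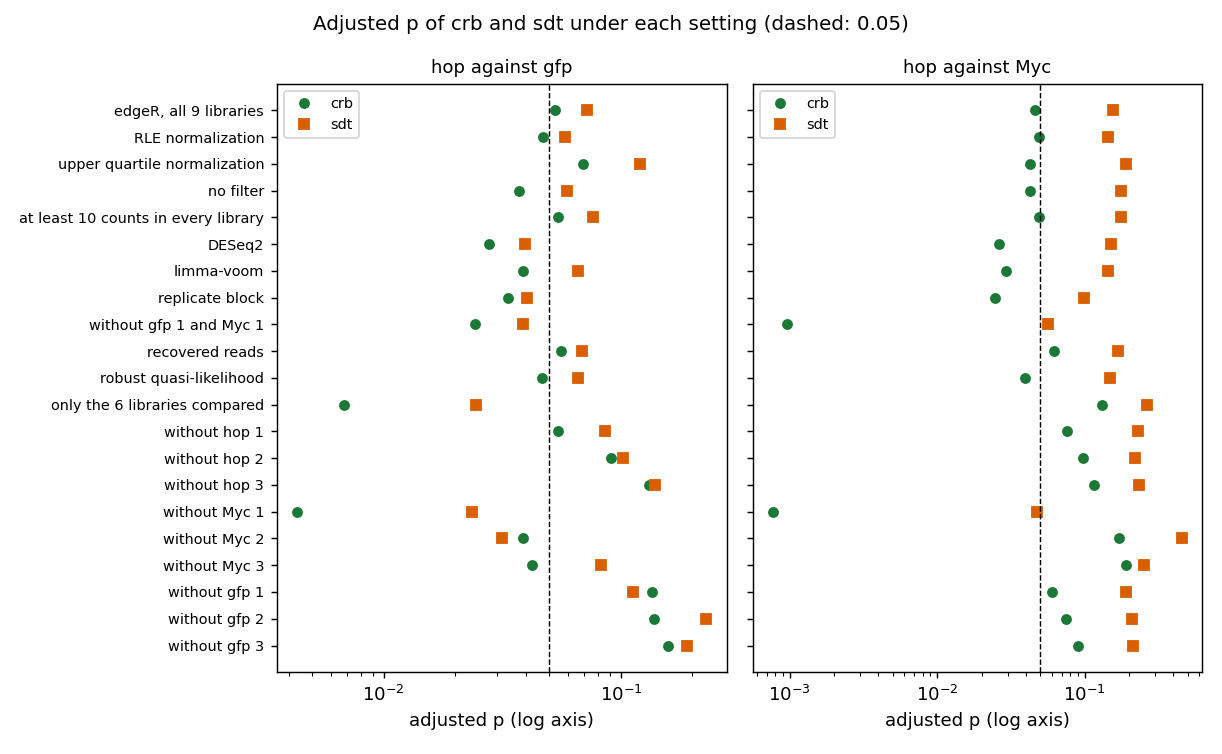
Adjusted p (horizontal log axes) of *crb* (circles) and *sdt* (squares) in hop against gfp and hop against Myc, for edgeR on all 9 libraries and for each alternative setting (down the page), with a dashed line at 0.05. The adjusted p of *crb* is 0.0527 and 0.0462 on all 9 libraries and lowest without Myc 1, at 0.00433 and 0.000771.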

How the data were processed

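RNA-seq counts of 9 libraries of sorted wing disc cells were used. Per the labels and methods, the authors aligned reads to dm6 with STAR, removed PCR duplicates with Picard and made the deposited raw counts per gene with HTSeq. The authors also deposited a table of normalized signal values, counts divided by size factors. Multiplied back, 100% of these values came within 0.02 of a whole read, and these reads served as an alternative on which edgeR called 0 polarity genes in hop against gfp. The authors used DESeq2. The sources used here give neither tool versions nor the strand setting of the counting.

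Raw counts were filtered with filterByExpr (12741 genes) and tested with edgeR 4.0.16 (TMM, glmQLFit, glmQLFTest, all 9 libraries) in R 4.3.3, with p-values adjusted over all genes. The script was tested on simulated data. Alternatives were RLE and upper quartile scaling, other filters, DESeq2 1.42.0, limma-voom (limma 3.58.1), the recovered reads, the replicate number as a block, fewer libraries, and robust quasi-likelihood, chosen after seeing the data. No exact permutation test was run, since 0.1 is the smallest p that 3 libraries against 3 allow. Reads carry no molecular identifiers, and counting errors cover counting only.

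The 9 polarity genes, the lists and the markers were chosen with earlier results of these data known. Text names all polarity genes, up to 4 called genes per list and comparison with the smallest p, the group checks, the markers and the 5 genes most like the polarity gene with the smallest p. Exon lengths and coordinates are from the BDGP6 annotation, where exons of *baz*, *aPKC* and *l(2)gl* share 59, 12 and 83 bases with other genes or transposons. Names *lkb1*, *R* and *CG10176* of the count table stand for *Lkb1*, *Rap1* and *grnd*. Sequences were not analysed here.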

Additional observations from a re-analysis of the deposited data

How the results depend on the processing

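Over the 9 polarity genes, 3 comparisons and 20 alternative settings, 467 values kept their sign and their side of the threshold, 18 passed it and 10 lost it, and 45 changed sign, none of them called. In hop against gfp the count of called polarity genes, 0 by edgeR on all libraries, was 1 with RLE scaling, with no filter, by limma-voom and with robust quasi-likelihood (chosen after seeing the data), 2 by DESeq2, without gfp 1 and Myc 1, and with the 6 libraries compared alone, and 0 to 2 with a library left out. In hop against Myc it was 1, and 0 with the recovered reads and with the 6 libraries alone, and 0 to 2 with a library left out. In Myc against gfp it was 0 in all 20 settings.

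Of the 49 further genes, the count called in hop against gfp was 2, against 5 by DESeq2 and without gfp 1 and Myc 1, 6 with the 6 libraries alone, and 0 to 6 with a library left out. In Myc against gfp it was 0, against 1 with at least 10 counts in every library, 2 by DESeq2, 1 by limma-voom, and 0 to 1 with a library left out. In hop against Myc it was 5, against 10 by DESeq2, 8 without gfp 1 and Myc 1, 0 with the 6 libraries alone, and 0 to 8 with a library left out. Over all genes, 910 were called in hop against gfp, 338 in Myc against gfp and 838 in hop against Myc. By DESeq2 these counts were 1346, 554 and 1205, and with the 6 libraries alone 1693, 397 and 267. Without Myc 1 hop against gfp had 1921 and hop against Myc 2500, and with a library left out the counts ran from 119 to 1921, 57 to 437 and 229 to 2500.

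The replicate numbers were not taken to pair the libraries, because the rule used asked every same-numbered pair to correlate above 0.1. That rule cannot exclude pairing, so the question was left undecided. Same-numbered libraries had correlations of -0.14 to 0.39 between their deviations from the group means, over 0.1 in 5 of 9 pairs. As a hint of pairing from the data, a library correlated best with its own number, among the 3 libraries of another group, in 13 of 18 cases. With the replicate block, 2 polarity genes were called in hop against gfp, *crb* (adjusted p = 0.0333) and *sdt* (0.0400), and 1 and 10 further genes in Myc against gfp and hop against Myc. Over all genes the replicate block gave 1722, 540 and 1771 calls.

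Signs changed only at small fold changes. For *aPKC* in hop against gfp the log2 fold change was 0.0163 with RLE scaling, 0.0158 with no filter, 0.0180 by DESeq2, 0.0368 without gfp 1 and Myc 1, 0.0150 with the recovered reads, and -0.0172 to 0.0549 with a library left out. In Myc against gfp, *crb* was at 0.0026 with no filter, 0.0063 with the 6 libraries alone and -0.1883 to 0.0807 with a library left out, and *aPKC* at -0.0186 with upper quartile scaling and -0.0430 to 0.0885. *scrib* was at 0.0033 with RLE scaling, 0.0120 with no filter, 0.0015 with at least 10 counts, 0.0030 by DESeq2, 0.0061 with the recovered reads, 0.0157 with the 6 libraries alone and -0.0402 to 0.0284 with a library left out. With a library left out, *baz* ran from -0.0216 to 0.1597 and *par-6* from -0.1159 to 0.0787 in Myc against gfp. In hop against Myc, *l(2)gl* was at -0.0065 with upper quartile scaling and -0.0046 with at least 10 counts, and with a library left out ran from -0.0559 to 0.1195, *aPKC* from -0.0691 to 0.0606 and *yrt* from -0.0012 to 0.1099. The cause of these changes was not tested. Counting error was 1.74 to 4.83% of the level of a polarity gene in a group, beside coefficients of variation between libraries of 1.17 to 21.7%.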
